A study of Homo sapiens with 2 samples.

Results

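The genes described here are 55 components of the Wnt pathway: its ligands, receptors, antagonists and effectors. They were taken by gene symbol from the FPKM tables of 2 RNA-seq libraries of the human serous ovarian cancer cell line OVSAHO, and all 55 were among the 26255 symbols listed. The perturbed library came from cells with the genotype label SMARCA2 stable, SMARCA4 knockdown. By the series text their SMARCA2 was raised and their SMARCA4 lowered. The control library came from cells labelled WT, which the series text names OVSAHO-Ctrl-siNC. Both cultures had been kept in 25 µM carboplatin for 2 days, so no untreated cells are compared. SMARCA2 and SMARCA4 are the alternative ATPases of the SWI/SNF chromatin remodelling complex. The labels give neither the promoter that drives SMARCA2 nor whether the lines are single clones.

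Wnt proteins are secreted lipid-modified ligands that bind a Frizzled receptor together with the co-receptor LRP5 or LRP6. Without a ligand, a destruction complex of AXIN, APC, GSK3 and CK1 marks beta-catenin for degradation. With a ligand, Dishevelled proteins block that complex, and beta-catenin enters the nucleus and acts with the DNA-binding factors LEF1 and TCF7, TCF7L1 and TCF7L2. Many of the genes it turns on, such as AXIN2, NKD1, ZNRF3 and DKK1, feed back on the pathway. In the ovary and fallopian tube, Wnt signals are known for their part in the growth of epithelial progenitors.

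In the perturbed library, 8 of the 38 Wnt genes with a usable level were higher (21.1%) and 1 was lower. Over all 11785 genes with a usable level, 7.85% were higher and 7.61% were lower. Of the LEF1/TCF7 transcription factors, the 3 with a usable level were all higher. Among them LEF1 and TCF7L1 reached 1 FPKM in the perturbed library alone, which favours a higher call. TCF7, the remaining member, was under 1 FPKM in both libraries, at 0.292 FPKM perturbed and 0.505 FPKM control. Also higher were the co-receptor LRP6, the receptor-removing ligase ZNRF3, the secreted antagonist SFRP1, the Dishevelled inhibitor NKD2 and the ligand transporter WLS. DKK1, a secreted antagonist of LRP5 and LRP6, was the 1 lower gene. The summed level of the LEF1/TCF7 family was 11.4 FPKM in perturbed cells and 2.28 FPKM in control cells, a ratio of 5.01. Beta-catenin itself, CTNNB1, was at 25.8 FPKM in perturbed cells and 38.4 FPKM in control cells. In such bulk libraries, fewer cells that express a gene and less of its RNA per cell cannot be told apart.

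Higher and lower are used here by a rule of size, since 1 library per group allows no test, p-value or error between cultures. FPKM gives the fragments of a gene per kilobase of its transcript, scaled to 1000000 mapped fragments. A gene was usable if either library gave it 1 FPKM or more. After 1 FPKM was added to both levels, a usable gene was higher with a log2 ratio (perturbed over control) of 1 or more and lower with one of -1 or less. Folds are ratios of FPKM without the pseudocount, and their 95% intervals are exact binomial (Clopper-Pearson) intervals on approximate fragment numbers. The intervals cover counting error only, PCR copies are not independent molecules, and a difference between these 2 libraries is not shown to be one between the conditions.

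Of all 11785 usable genes, 7.85% were higher and 7.61% were lower by this rule. Of the 55 Wnt genes, 38 were usable, so the 8 higher genes were 21.1% and the 1 lower gene was 2.63% of those. The median log2 ratio of the 38 was 0.39, and that of all usable genes was -0.06. Only 27 of the 38 reached 1 FPKM in both libraries. The other 11 entered through 1 library, which favours genes that differ, and 6 of the 9 genes past the rule (LRP6, ZNRF3, SFRP1, LEF1, TCF7L1 and DKK1) were among these. Among the 27, 3 were higher (11.1%, against 5.45% of all genes at that level) and none was lower. Their median log2 ratio was 0.15, against -0.10 for all genes at that level. The counting interval lay above a fold of 1 for 19 of the 38 and below it for 9, while over all 10905 usable genes with a transcript length the shares were 33.3% above and 40.6% below.

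**Figure D1:**
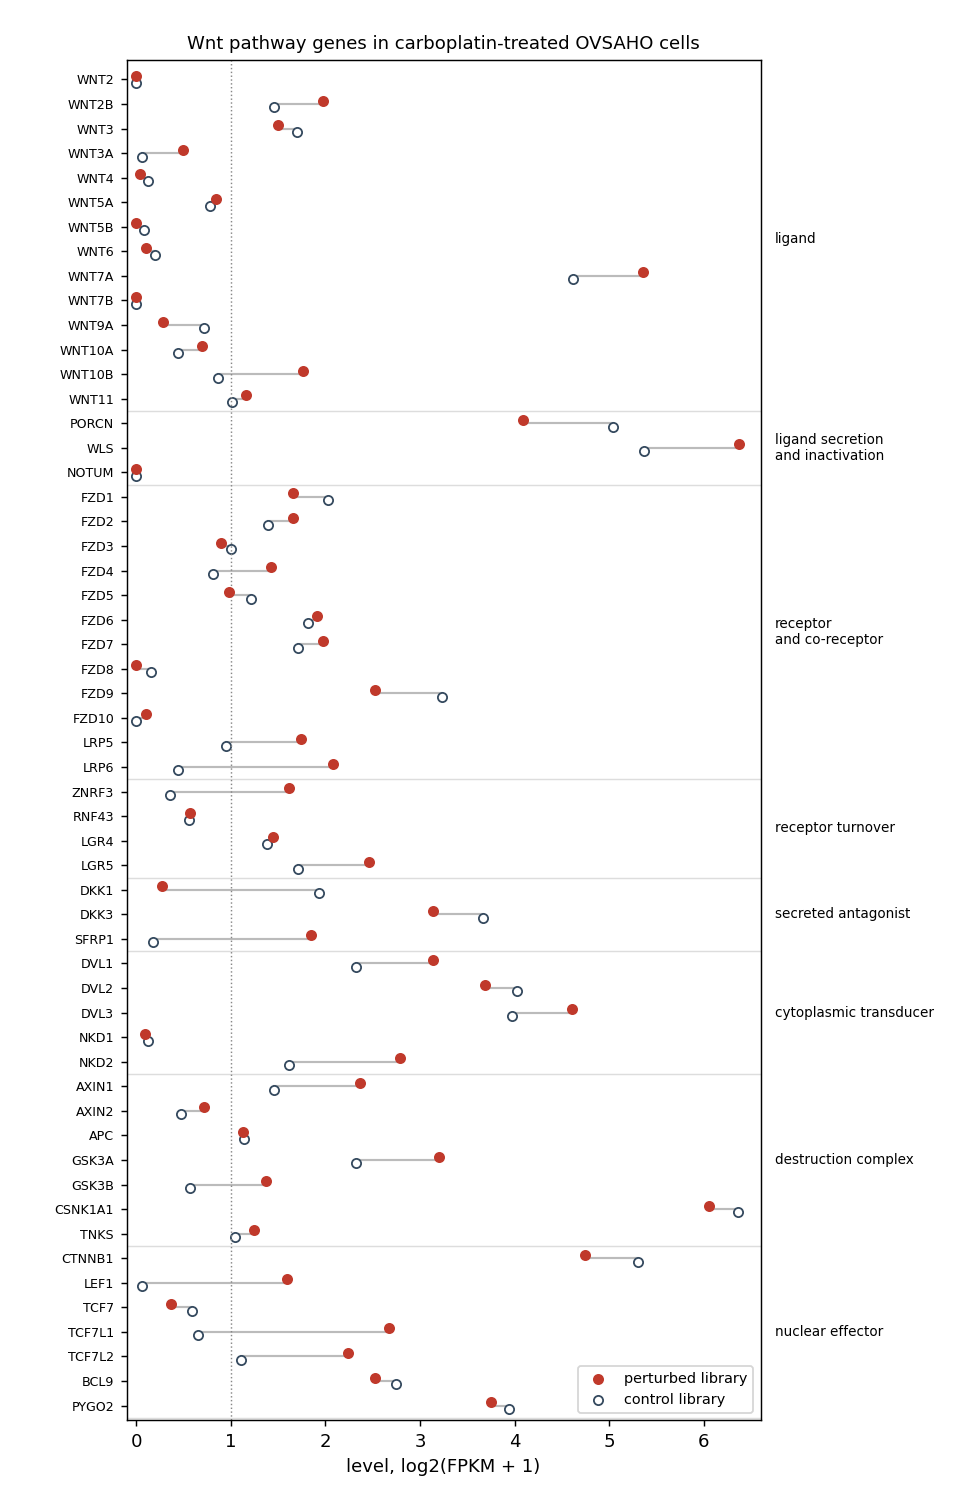
Level of each of the 55 Wnt genes, as log2(FPKM + 1), in the perturbed library (filled red) and the control library (open), grouped by role, with 1 library per group and no error bars. The dotted line marks 1 FPKM. The longest gaps are those of TCF7L1, LEF1, LRP6 and SFRP1, with the perturbed library to the right, and of DKK1, with the perturbed library to the left.

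Estimated depth was about 8850000 fragments in the perturbed library and 9050000 in the control library, and 1 FPKM of a 2000-base transcript was about 16 fragments. SMARCA2 was at 2.60 FPKM in perturbed cells and 0.205 FPKM in control cells, and SMARCA4 at 4.49 FPKM perturbed and 27.9 FPKM control, the directions that the series text gives. The ovarian epithelial markers PAX8 (42.1 FPKM perturbed, 21.9 FPKM control) and EPCAM (40.9 FPKM perturbed, 27.1 FPKM control) were present, while MUC16 was at 0 FPKM perturbed and 0.0608 FPKM control. Of the 12 markers on that list 11 were usable. By the rule WT1 (5.52 FPKM perturbed, 1.53 FPKM control) and CDH6 (11.4 FPKM perturbed, 3.07 FPKM control) were higher. KRT7 was lower, at 119 FPKM perturbed and 539.6 FPKM control, and the sum of the list was 1136 FPKM perturbed and 1574 FPKM control. The part of these differences in the values of the Wnt genes was not tested. Of 7 fibroblast markers 5 were at 0 in both libraries, with sums of 0.134 FPKM perturbed and 0.154 FPKM control. Of 8 leukocyte markers 5 were at 0 in both libraries, PTPRC among them, and the 5 endothelial markers summed to 0.806 FPKM perturbed and 0.735 FPKM control. Ratios varied with transcript length over all usable genes: the median log2 ratio was -0.17 at 2000 to 4000 bases and 0.43 at 9000 bases or more, where 18.7% of genes were higher and 1.70% lower. Under a common sum of FPKM the median ratio of usable genes was 0.08. The split of all genes past the rule was then 1257 higher and 685 lower (64.7% higher), against 925 higher and 897 lower (50.8%) as deposited. Centred on the median ratio it was 1158 higher and 684 lower (62.9%).

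The highest log2 ratio of the 55 genes was that of a DNA-binding effector. TCF7L1, a LEF1/TCF7 factor known mainly as a repressor of Wnt targets, was at 5.36 FPKM in perturbed cells and 0.569 FPKM in control cells. That is 9.42-fold higher (interval 5.49 to 17.9), on about 131 fragments perturbed and 14.2 control, and the log2 ratio of 2.02 was at percentile 99.4 among usable genes. LEF1, which mostly activates targets with beta-catenin, was at 2.03 FPKM in perturbed cells and 0.0452 FPKM in control cells. The control value stood on about 1.34 fragments, in effect a single one, so the 45.0-fold ratio has an interval of 10.4 to 2417. Counted on the shortest matched LEF1 transcript the interval was 3.81 to 967. LEF1-AS1, which shares 279 exonic bases with LEF1 on the other strand in GENCODE 29, was at 0.533 FPKM perturbed and 0.130 FPKM control. Its part in the LEF1 value was not tested, since the library method does not mark strand. TCF7L2, the family member best known from the intestinal epithelium, was at 3.71 FPKM in perturbed cells and 1.16 FPKM in control cells, 3.21-fold higher (2.22 to 4.67). TCF7, the remaining member and best known from T cells, was under 1 FPKM in both libraries, at 0.292 FPKM perturbed and 0.505 FPKM control, on about 7.36 fragments perturbed and 13 control, and its interval held a fold of 1. SKP1, an antisense neighbour at 490.4 FPKM perturbed and 727 FPKM control, shares 210 exonic bases with TCF7, and its part was not tested. The make-up of the family thus differed between the libraries: TCF7L1 gave 47.0% of its summed FPKM in the perturbed library and 25.0% in the control library, and LEF1 gave 17.8% perturbed and 1.99% control. TCF7L2 gave 32.6% perturbed and 50.8% control, and TCF7 gave 2.56% perturbed and 22.2% control. A share falls when those of other members rise, so the lower shares of TCF7L2 and TCF7 are no separate result. LEF1 and TCF7L1 reached 1 FPKM in the perturbed library alone. The LEF1/TCF7 calls did not all hold against the trends: once cubic trends of the ratio on length, GC content and level had been taken out, TCF7L1 was at 1.83 and LEF1 at 1.26, and TCF7L2, at 0.95, missed the rule.

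**Figure D2:**
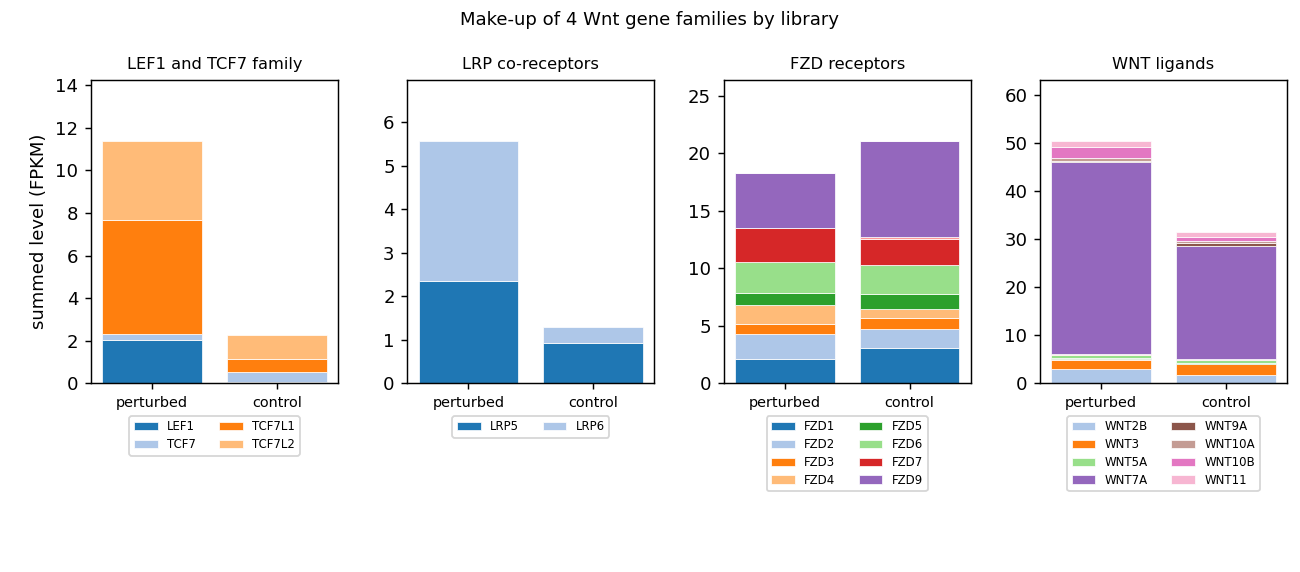
Summed FPKM of the LEF1/TCF7 family, the LRP co-receptors, the FZD receptors and the WNT ligands in the perturbed library (left bar) and the control library (right bar), stacked by gene; members under 0.5 FPKM in both libraries are drawn but not listed in the legend. The LEF1/TCF7 sum was 11.4 FPKM perturbed and 2.28 FPKM control, and the LRP sum 5.57 FPKM perturbed and 1.29 FPKM control. The FZD sum was 18.3 FPKM perturbed and 21.1 FPKM control. LRP5, LRP6, LEF1 and TCF7L1 reached 1 FPKM in the perturbed library alone, which favours genes that differ.

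The nuclear coactivators CTNNB1, BCL9 and PYGO2 did not pass the rule. CTNNB1, beta-catenin, the coactivator that LEF1/TCF7 factors recruit, was 1.49-fold lower (1.36 to 1.63), within the rule at a log2 ratio of -0.56. BCL9, the adaptor between beta-catenin and PYGO proteins, was at 4.77 FPKM perturbed and 5.69 FPKM control. PYGO2, which reads methylated histone H3 for that complex, was at 12.5 FPKM perturbed and 14.4 FPKM control, and its interval of the fold, 0.743 to 1.0, reached 1.

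To look for the core letters of a LEF1/TCF7 site near the starts of the genes past the rule, RefSeq promoter windows of build GRCh38.p14, from 250 bases before to 50 bases after an annotated start, were searched on both strands for the factor core CTTTGA. The FPKM values were made on hg19 and are joined to these windows by symbol only. Of the 9 genes past the rule, 6 had a window (WLS, TCF7L1, LEF1, NKD2, DKK1 and TCF7L2). CTTTGA was found in 12.9% of 35116 windows of that length. Spellings of the core without this string were neither searched for nor marked. CTTTGA was in 3 of the 49 windows of Wnt genes, those of CSNK1A1, PORCN and DKK1. DKK1 was the 1 gene past the rule with a match, on the reverse strand at -149 and on the forward strand at -95, counted from the start to the first base of the match, and the second match reads on as CTTTGAA, which 4.43% of windows hold. Both are in capitals below, the reverse-strand one as its complement TCAAAG. Given beside that window are those of LEF1 and TCF7L1, the pair of factors with the highest ratios in their family, which hold no CTTTGA. These 3 windows were picked by the ratios of their genes, so they cannot tie a match to a direction. The other Wnt genes with a match, CSNK1A1 and PORCN, lay within the rule.
DKK1, chr10:52314031-52314330, plus strand: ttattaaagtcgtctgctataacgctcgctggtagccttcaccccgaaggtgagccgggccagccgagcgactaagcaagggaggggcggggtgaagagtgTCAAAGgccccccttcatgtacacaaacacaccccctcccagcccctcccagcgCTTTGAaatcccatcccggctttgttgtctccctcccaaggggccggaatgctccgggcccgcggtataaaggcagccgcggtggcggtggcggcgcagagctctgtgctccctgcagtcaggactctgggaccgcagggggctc
LEF1, chr4:108166252-108166551, minus strand: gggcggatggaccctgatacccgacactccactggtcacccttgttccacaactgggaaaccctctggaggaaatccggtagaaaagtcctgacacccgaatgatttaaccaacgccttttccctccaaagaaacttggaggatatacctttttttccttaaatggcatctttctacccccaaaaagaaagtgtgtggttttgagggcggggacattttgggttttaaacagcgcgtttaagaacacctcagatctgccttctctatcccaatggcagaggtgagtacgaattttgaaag
TCF7L1, chr2:85133142-85133441, plus strand: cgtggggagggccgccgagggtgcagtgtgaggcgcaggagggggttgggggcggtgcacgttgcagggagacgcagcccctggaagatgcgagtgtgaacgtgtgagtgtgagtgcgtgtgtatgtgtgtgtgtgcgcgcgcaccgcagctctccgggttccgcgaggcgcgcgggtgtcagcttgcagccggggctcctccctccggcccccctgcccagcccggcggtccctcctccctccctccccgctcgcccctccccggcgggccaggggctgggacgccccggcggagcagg
These windows differ in base composition as well, with 63.7% G and C in that of DKK1, 47.0% in that of LEF1 and 74.3% in that of TCF7L1, against a median of 58.7% over all windows. A match is a run of letters and not a shown binding site.

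Of the 3 secreted antagonists, 1 was lower, 1 was higher and 1 was within the rule. DKK1, which binds LRP5 and LRP6 and blocks their use by Wnt, was at 0.211 FPKM in perturbed cells and 2.82 FPKM in control cells. On about 2.98 fragments perturbed and 40.6 control that is 13.4-fold lower (4.27 to 67.6). SFRP1, a soluble Frizzled-like protein that binds Wnt ligands, was at 2.59 FPKM in perturbed cells and 0.129 FPKM in control cells. On about 98.6 fragments perturbed and 5.02 control that is 20-fold higher (8.37 to 63.6). Both stayed past the rule with trends removed, at -1.75 for DKK1 and 1.35 for SFRP1. DKK3, a family member that does not share the LRP block of DKK1, was the most abundant of the 3 at 7.79 FPKM perturbed and 11.7 FPKM control, 1.5-fold lower (1.23 to 1.83) and within the rule. The summed level of the 3 was 10.6 FPKM in perturbed cells and 14.6 FPKM in control cells.

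Of the other antagonists of the pathway only FRZB, a Frizzled-like Wnt binder also called SFRP3, was usable among 14 listed, at 34.2 FPKM perturbed and 50.6 FPKM control, 0.676 of the control level (0.620 to 0.736). It was the most abundant antagonist in both libraries. WIF1 and SFRP2 were at 0 in both.

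Frizzled receptors and their co-receptors differed in their ratios. LRP6 was at 3.23 FPKM in perturbed cells and 0.358 FPKM in control cells, 9.04-fold higher (6.20 to 13.4) on about 281 fragments perturbed and 31.7 control. LRP5, its paralog, was at 2.34 FPKM perturbed and 0.935 FPKM control, 2.5-fold higher (1.73 to 3.67), yet within the rule at a log2 ratio of 0.79. LRP6 therefore made up 58.0% of the summed FPKM of the pair in the perturbed library and 27.7% in the control library. Both LRP5 and LRP6 reached 1 FPKM in the perturbed library alone, which favours genes that differ. The LRP6 transcript is 10020 bases long, a class with high ratios in general, and with trends removed its log2 ratio was 1.15, against 1.64 as deposited, while that of LRP5 was 0.35.

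No Frizzled gene passed the rule. The summed FPKM of the 10 was 18.3 in the perturbed library and 21.1 in the control library, and the median log2 ratio of the 7 usable ones was 0.09. FZD9 was the most abundant Frizzled in each library, at 4.74 FPKM perturbed and 8.41 FPKM control, 1.77-fold lower (1.36 to 2.32), and with trends removed it passed the rule as lower, at -1.05. FZD1 was at 2.15 FPKM perturbed and 3.09 FPKM control, 1.44-fold lower (1.14 to 1.81). FZD4, also the receptor of the ligand Norrin, was at 1.69 FPKM perturbed and 0.752 FPKM control, 2.25-fold higher (1.59 to 3.22). In GENCODE 29 the gene PRSS23, on the opposite strand, shares 1399 exonic bases with FZD4. PRSS23 was at 106 FPKM perturbed and 37.9 FPKM control, and its part in the FZD4 value was not tested. FZD2, FZD5, FZD6 and FZD7 had intervals that held a fold of 1, with levels between 0.975 and 2.94 FPKM over both libraries. FZD3 was just under 1 FPKM in both, at 0.858 FPKM perturbed and, before rounding, slightly less than 1 FPKM control. FZD8 was at 0 FPKM perturbed and 0.111 FPKM control, and FZD10 at 0.0733 FPKM perturbed and 0 FPKM control, each on 4 fragments or fewer.

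The genes that set receptor turnover included 1 past the rule. ZNRF3, a membrane ubiquitin ligase that removes Frizzled and LRP6 from the surface, was at 2.07 FPKM in perturbed cells and 0.282 FPKM in control cells, 7.35-fold higher (4.39 to 13). Its transcripts differ much in length, and on the shortest the interval was 3.25 to 21.9. Its paralog RNF43 was at 0.485 FPKM perturbed and 0.474 FPKM control, on about 22.8 fragments each, with an interval of 0.547 to 1.90. With trends removed ZNRF3 was at 0.79, short of the rule. LGR4 and LGR5, receptors of the R-spondins that hold ZNRF3 and RNF43 back, were unlike each other: LGR5, also a marker of epithelial stem cells, was at 4.51 FPKM perturbed and 2.28 FPKM control, 1.98-fold higher (1.52 to 2.57), and LGR4 at 1.72 FPKM perturbed and 1.60 FPKM control. The R-spondins themselves were low, with RSPO4 at 0.947 FPKM perturbed and 1.37 FPKM control and the other three at 0.236 FPKM or less in each.

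Of the 14 ligands, 5 were usable and none passed the rule. WNT7A gave most of the ligand FPKM, 79.1% in the perturbed library and 75.0% in the control library. This ligand, known for patterning the female reproductive tract, was at 40.0 FPKM perturbed and 23.6 FPKM control, 1.70-fold higher (1.55 to 1.85). WNT10B was at 2.39 FPKM perturbed and 0.815 FPKM control, 2.94-fold higher (1.63 to 5.79), just under the rule at 0.90 and over it under a common sum of FPKM. WNT2B was at 2.92 FPKM perturbed and 1.75 FPKM control. It shares 2661 exonic bases with the antisense ST7L, at 6.46 FPKM perturbed and 8.07 FPKM control, whose part was not tested. WNT3 was at 1.82 FPKM perturbed and 2.24 FPKM control, and WNT11 at 1.24 FPKM perturbed and 1.02 FPKM control. WNT3A, a classical activator of beta-catenin, was at 0.407 FPKM in perturbed cells and 0.0399 FPKM in control cells, on about 9.86 fragments perturbed and 1 control, with a ratio of 10.2 and an interval of 1.45 to 443. WNT9A was the reverse, at 0.217 FPKM perturbed and 0.638 FPKM control, 2.94-fold lower (1.27 to 8.54), and like WNT3A it stayed below the level at which the rule is applied. WNT5A, the main ligand of the branch without beta-catenin, was at 0.798 FPKM perturbed and 0.718 FPKM control. WNT10A was at 0.623 FPKM perturbed and 0.356 FPKM control. WNT4, WNT5B and WNT6 had 3 fragments or fewer in each library, and WNT2 and WNT7B were listed at 0 in both.

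The 2 genes that Wnt ligands generally pass through were both abundant and went in opposite directions. WLS, the carrier that takes Wnt to the cell surface, was at 81.9 FPKM in the perturbed library, the highest level of the 55, and 40.3 FPKM in the control library. The ratio was 2.03 (1.88 to 2.2), just inside the rule at a log2 ratio of 1.0, and 1.2 with trends removed. PORCN, the acyltransferase that adds the lipid, was at 16 FPKM perturbed and 32.0 FPKM control, 1.99-fold lower (1.71 to 2.34), just outside the rule at -0.95. NOTUM, which strips the lipid off again, was listed at 0 in both libraries.

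**Figure D3:**
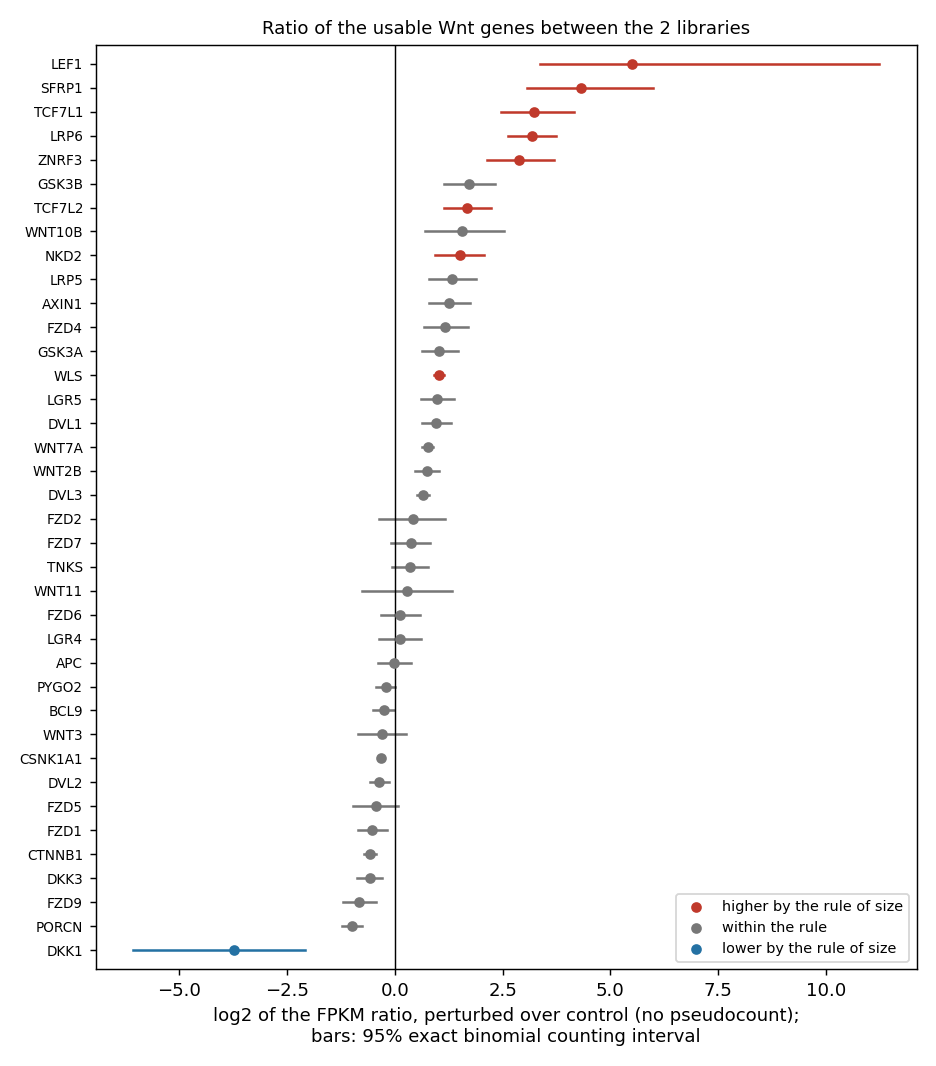
Ratio of FPKM, perturbed over control, on a log2 axis and without pseudocount, for the 38 usable Wnt genes, with 95% exact binomial counting intervals as bars. Red and blue points passed the rule of size as higher (8) and lower (1), and grey points did not. GSK3B and WNT10B lie further right than NKD2 or WLS but missed the rule, which adds 1 FPKM to each level.

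In the cytoplasm, NKD2, which binds Dishevelled and dampens Wnt signals, was at 5.90 FPKM in perturbed cells and 2.07 FPKM in control cells, 2.85-fold higher (1.91 to 4.22). NKD1, its paralog and a common Wnt target, was at 0.0663 FPKM perturbed and 0.0908 FPKM control. NKD2 was at 0.83 with trends removed, short of the rule. Of the Dishevelled genes, DVL3 was at 23.3 FPKM perturbed and 14.7 FPKM control, 1.58-fold higher (1.43 to 1.74). DVL1 was at 7.79 FPKM perturbed and 4.02 FPKM control, 1.94-fold higher (1.54 to 2.48). DVL2 was at 11.9 FPKM perturbed and 15.3 FPKM control, 1.28-fold lower (1.10 to 1.5). All 3 lay within the rule, and their sum was 43.0 FPKM perturbed and 34.1 FPKM control.

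None of the 7 destruction complex genes passed the rule, though the scaffold AXIN1 and both GSK3 kinases came near it. AXIN1 was at 4.14 FPKM in perturbed cells and 1.75 FPKM in control cells, 2.37-fold higher (1.72 to 3.34). GSK3A was at 8.22 FPKM perturbed and 4.02 FPKM control, 2.04-fold higher (1.54 to 2.76). GSK3B, whose transcript of 7711 bases is also in a long class, was at 1.59 FPKM perturbed and 0.482 FPKM control, 3.30-fold higher (2.2 to 5.0). On the shortest GSK3B transcript the interval was 1.32 to 10.3. AXIN1 and GSK3A passed the rule under a common sum of FPKM. CSNK1A1, the kinase that primes beta-catenin, was the most abundant Wnt gene of the control library, at 65.5 FPKM perturbed and 81.2 FPKM control, 1.24-fold lower (1.19 to 1.30). CSNK1A1 and the adaptor BCL9 have pseudogene copies in GENCODE 29, so how their reads were shared out is uncertain. The tumour suppressor APC was at 1.18 FPKM perturbed and 1.2 FPKM control, with an interval of 0.757 to 1.30. TNKS, the tankyrase that turns over AXIN, was at 1.37 FPKM perturbed and 1.07 FPKM control. AXIN2, the most widely used readout of beta-catenin activity, was under 1 FPKM in both libraries, at 0.644 FPKM perturbed and 0.384 FPKM control, on about 23.2 fragments perturbed and 14.1 control, and its interval of 0.827 to 3.52 held a fold of 1.

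Low genes were thus part of the picture. Of the 17 Wnt genes under 1 FPKM in both libraries, 3 (WNT2, WNT7B and NOTUM) were listed at 0 in both, FZD10 was above 0 in the perturbed library alone, and WNT5B and FZD8 in the control library alone. The other 11 were above 0 in both, from 0.0305 FPKM for WNT4 in the perturbed library up to the level of FZD3, just under 1 FPKM, in the control library.

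**Figure D4:**
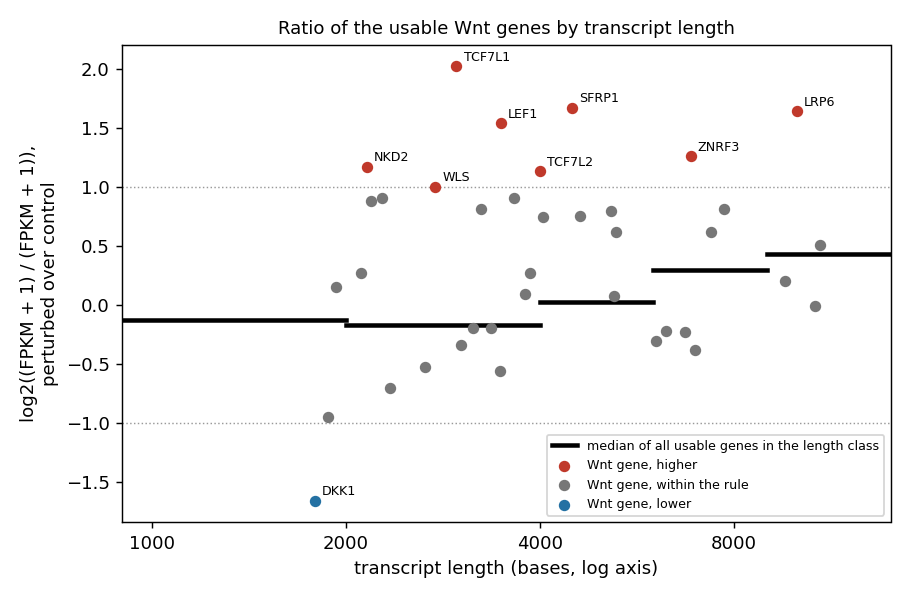
Log2 ratio with a pseudocount of 1 FPKM against transcript length on a log axis for the 38 usable Wnt genes, with the median of all usable genes in 5 length classes as black bars. The medians go from -0.17 at 2000 to 4000 bases to 0.43 at 9000 bases or more. LRP6 and ZNRF3 are long transcripts, whereas TCF7L1, LEF1, NKD2 and WLS lie under 4000 bases.

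Once the trends on length, GC content and level were taken out, 5 of the 38 usable Wnt genes were higher (WLS, LRP6, SFRP1, LEF1 and TCF7L1), 13.2% against 5.73% of all genes, and 2 were lower (FZD9 and DKK1). Their median was then 0.10, against -0.07 over all genes. For the 15 Wnt genes that reached 5 FPKM in either library, the median log2 ratio was -0.20, near the -0.17 of all genes at that level, and 3 of them (WLS, NKD2 and TCF7L1) were higher (20%, against 6.96% of all genes at that level) and none lower (8.85% of all genes).

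The wider pathway was read from 133 other genes, of which 85 were usable. By the rule 13 of these were higher (15.3%, against 7.85% of all usable genes) and 5 lower (5.88%, against 7.61%). The median log2 ratio of the 85 was 0.39, or 0.16 with trends removed, against -0.06 and -0.07 over all usable genes. Of the 85, 15 reached 1 FPKM in 1 library only. Of 10 other receptors, RYK, a Wnt co-receptor without kinase activity, was higher at 8.04 FPKM perturbed and 3.16 FPKM control. TSPAN12, which helps FZD4 respond to Norrin, was lower at 2.48 FPKM perturbed and 10.6 FPKM control, 0.234 of the control level (0.172 to 0.313). PTK7, the most abundant of that list, was at 18.7 FPKM perturbed and 13.5 FPKM control. In the planar cell polarity and non-canonical list, 2 of 16 usable genes were higher (12.5%, against 7.85% of all genes) and none was lower. The higher ones were the atypical cadherin CELSR2 (6.13 FPKM perturbed, 2.03 FPKM control) and the polarity scaffold SCRIB (8.88 FPKM perturbed, 3.28 FPKM control). The CELSR2 transcript is 10534 bases long, and with trends removed both missed the rule, CELSR2 at 0.69 and SCRIB at 0.77. The GTPase RHOA, the most abundant member of that list, was at 188 FPKM perturbed and 203 FPKM control.

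Of 21 further usable genes of the destruction complex and its ubiquitin steps, 5 were higher (23.8%, against 7.85% of all usable genes). The 2 lower ones were 9.52%, near the 7.61% of all usable genes. The median log2 ratio of the list was 0.22, or 0.06 with trends removed. The casein kinases CSNK1G2 (7.31 FPKM perturbed, 1.51 FPKM control, 4.83-fold), CSNK1E (17.2 FPKM perturbed, 8.01 FPKM control) and CSNK2A2 (8.21 FPKM perturbed, 3.34 FPKM control) were higher, as were the GSK3 inhibitor FRAT2 (9.52 FPKM perturbed, 3.58 FPKM control) and the AXIN deubiquitinase USP34 (3.14 FPKM perturbed, 0.795 FPKM control). The USP34 transcript is 11357 bases long. With trends removed USP34 missed the rule, at 0.68, while the other higher genes of the list stayed past it. RNF146, the ligase that degrades AXIN after TNKS has marked it, was lower at 5.22 FPKM perturbed and 16.5 FPKM control, and so was the GSK3-binding GSKIP at 5.27 FPKM perturbed and 11.9 FPKM control. CSNK2B was the most abundant of that list, at 449.5 FPKM perturbed and 582 FPKM control.

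Of 18 usable other nuclear cofactors, 3 were higher (16.7%, against 7.85% of all usable genes) and none was lower (7.61% of all usable genes). Their median log2 ratio was 0.67, or 0.32 with trends removed, against -0.06 and -0.07 over all usable genes. The corepressor CTBP2 was at 18.4 FPKM perturbed and 4.61 FPKM control, 3.99-fold higher (3.49 to 4.56). TBL1XR1 and TBL1X, paired exchange factors that beta-catenin also binds, were higher too: TBL1XR1 had 9.08 FPKM perturbed and 2.94 FPKM control, and TBL1X had 2.43 FPKM perturbed and 0.594 FPKM control. TBL1X thus reached 1 FPKM in the perturbed library alone. With trends removed it missed the rule, at 0.73, whereas CTBP2 and TBL1XR1 stayed past it. RUVBL2 was the most abundant of that list, at 205 FPKM perturbed and 126 FPKM control.

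Genes known as targets of beta-catenin in other tissues had 2 higher and 2 lower of 23 usable outside the 55 Wnt genes (8.70% each way, near the 7.85% and 7.61% of all usable genes), with a median log2 ratio of 0.02. The ligand FGF18 (19.5 FPKM perturbed, 4.22 FPKM control) and the claudin CLDN1 (16.4 FPKM perturbed, 5.50 FPKM control) were higher. The AP-1 subunit FOSL1 (5.65 FPKM perturbed, 46.9 FPKM control) and the protease MMP7 (0.861 FPKM perturbed, 5.06 FPKM control) were lower. CCND1 and MYC, often named as targets, lay within the rule, CCND1 at 42.2 FPKM perturbed and 22.5 FPKM control and MYC at 20.3 FPKM perturbed and 15.8 FPKM control. ID2, the most abundant of the list, was at 87.8 FPKM perturbed and 121 FPKM control. Of the 55 Wnt genes, 10 are also known as targets of the pathway, a list set after values were seen. Of these 5 were usable: 3 were higher (ZNRF3, NKD2 and LEF1), DKK1 was lower and LGR5 lay within the rule. The median log2 ratio of the usable 5 was 1.17, or 0.79 with trends removed. The other 5 (AXIN2, NKD1, RNF43, NOTUM and TCF7) were under 1 FPKM in both libraries. Of the usable 5, 3 (ZNRF3, LEF1 and DKK1) reached 1 FPKM in 1 library only, which favours genes that differ. With trends removed ZNRF3, at 0.79, and NKD2, at 0.83, missed the rule. Since the list was set after values were seen, its counts and median cannot be set against those of the targets outside the 55.

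**Figure D5:**
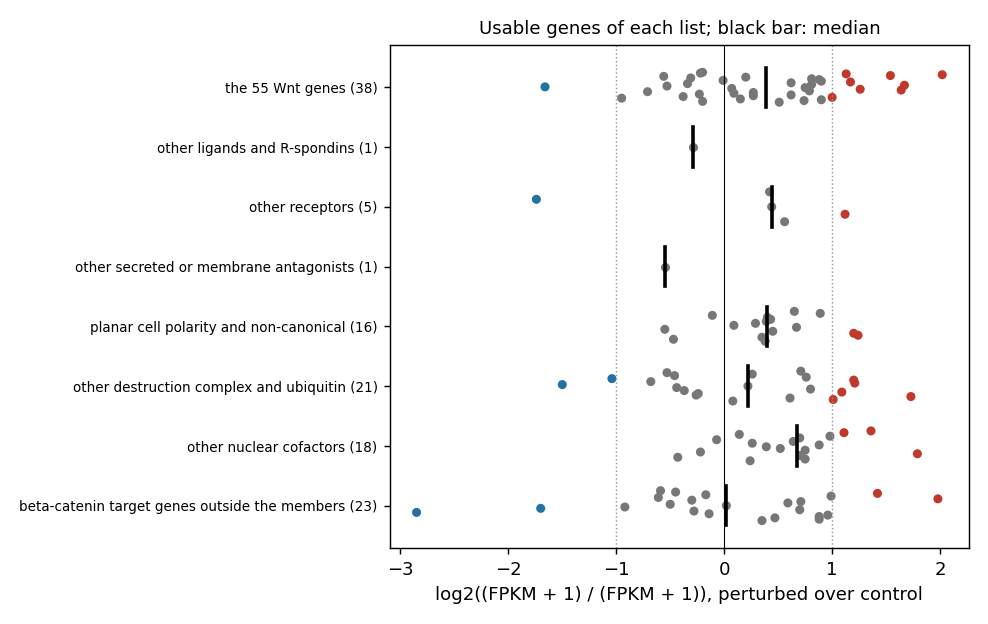
Log2 ratio with a pseudocount of 1 FPKM, perturbed over control, for the usable genes of the 55 Wnt genes and of 7 lists of other pathway genes, with the number of usable genes in brackets and the median as a black bar. Red and blue points passed the rule as higher and lower, and dotted lines mark -1 and 1. The medians were 0.39 for the Wnt genes, 0.67 for the nuclear cofactors and 0.02 for the target genes outside the 55.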

How the data were processed

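RNA-seq was available for 2 OVSAHO libraries, 1 perturbed and 1 control, grouped by the genotype labels. The labels' protocols name a Qiagen micro kit for total RNA, SMART-Seq HT for cDNA and Nextera XT for libraries, a method that does not mark strand. The authors deposited FPKM per gene symbol, per the file headers. TopHat2 2.1.1, Bowtie2 2.2.8, SAMtools 0.1.18, Cuffdiff 2.2.1 and the build hg19 are named in the submitters' processing notes. What annotation, filters and scaling the authors used is not given in the sources used here.

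Both the Wnt genes and the lists were chosen with earlier results of these data known. Every Wnt gene is accounted for, and of the other pathway genes those past the rule of size and the most abundant of each list are named. WIF1, SFRP2, CCND1 and MYC are also named and were chosen after their values were seen. The summed level of the leukocyte markers is not reported here.

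Ratios used a pseudocount of 1 FPKM and a minimum of 1 FPKM. Transcript lengths and GC content came from GENCODE 29 transcripts that it matches to RefSeq (all 55 Wnt genes, of which 22 have several; 93.1% of usable genes). The longest was used. Depth, and a shortening of 200 bases per transcript, were chosen so that the most single-transcript genes of at least 300 bases lay at the value of 1 fragment. A single fragment gave 1.02 times the FPKM in perturbed cells that it gave in control cells. The script was tested on simulated data with known depth and folds. Symbols of the lists were matched directly or through RefSeq synonyms. Python 3.11.15, numpy 2.4.6, scipy 1.17.1 and pandas 2.3.3 were used. Alternatives were other pseudocounts, scalings, filters, sizes and trend removal.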

Additional observations from a re-analysis of the deposited data

How the results depend on the processing

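The counts of Wnt genes past the rule were 8 higher and 1 lower of 38 usable. Over all usable genes the shares were 7.85% higher and 7.61% lower. Below, the all-gene share at each setting is in brackets, and 38 Wnt genes were usable unless stated. Higher genes numbered 14 with a pseudocount of 0.1 FPKM (13.8%), 0 with 5 FPKM (1.86%), 18 with a 1.5-fold rule (19.1%) and 1 with a 4-fold rule (0.602%). They numbered 5 with trends removed (5.73%), 11 of 39 with a common sum (10.5%) and 10 when centred on the median ratio (9.83%). Where 5 FPKM in a library was asked for, 3 of 15 were higher (6.96%), and where 1 FPKM in both was, 3 of 27 (5.45%). Lower genes numbered 3 with a 1.5-fold rule (21.3%) and 2 with trends removed (7.42%). None was lower with a pseudocount of 5 FPKM (3.22%) or a 4-fold rule (0.713%). None was lower under the filters of 5 FPKM in a library (8.85%) and 1 FPKM in both (6.85%). The median log2 ratio of 0.39 was reversed to -0.20 under the 5 FPKM filter. The other pathway genes were 13 higher and 5 lower of 85 usable. They were 22 higher with a pseudocount of 0.1 FPKM, 20 higher with a common sum, and 3 and 3 with a pseudocount of 5 FPKM. With a 1.5-fold rule they were 34 and 9, and with a 4-fold rule 0 and 1. The all-gene shares in brackets above apply at these settings too. A stricter filter or size leaves fewer genes by construction, and a larger pseudocount shrinks the ratios of low genes. The deposited sums were 866143 FPKM perturbed and 954761 FPKM control, so a common sum raises perturbed values against control values by construction. It took the higher Wnt genes from 8 to 11 and the higher genes of all from 925 to 1257. Why the deposited sums differ was not tested, and for the trends the cause was not tested.

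Of the 9 Wnt genes past the rule, 6 (WLS, LRP6, SFRP1, LEF1, TCF7L1 and DKK1) kept their call under the pseudocount of 0.1 FPKM, the 3 scalings and trend removal, and none did with a pseudocount of 5 FPKM. ZNRF3, NKD2 and TCF7L2 lost theirs with trends removed. The sign of 6 usable genes within the rule (WNT2B, WNT11, FZD2, LGR4, APC and TNKS) depended on the setting. No paired analysis was possible because each group has 1 library. Depth limits the low genes: a value of 0 allows up to 3 fragments, for counting error only.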
